A study of Ovis aries with 4 samples.

Results

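LGALS15 and LGALS3 encode a pair of galectins, small proteins that bind beta-galactoside sugars, and they were followed here in RNA from 4 sheep conceptuses of pregnancy day 14. The embryo and its membranes together form the conceptus, which by then is a lengthening filament, largely trophectoderm, the outer epithelium that will attach to the uterus. Both genes were taken by name as 2 of the 25197 features of the deposited table, in which each has 1 row. They were chosen by their RPKM values in these same 4 conceptuses, by level and by spread, so both are given as a description, with no test. The 4 conceptuses came from 4 crossbred Columbia and Rambouillet ewes and form 1 group, with no treatment, genotype contrast or second time point. Each was flushed from the uterus, frozen, and sequenced as ribosome-depleted total RNA. Values are RPKM, read numbers scaled to transcript length and to library size, computed by the authors. RPKM is per length, so levels of different genes are set side by side here. Such comparisons rest on the authors' gene lengths and read assignment, which were not given.

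Galectins share a carbohydrate recognition domain. Many are secreted without a signal peptide, and outside the cell they crosslink glycoproteins at the surface and in the matrix. LGALS15, also known as OVGAL11, is a ruminant galectin known from the sheep endometrium, where progesterone induces it in the luminal and superficial glandular epithelium and interferon tau from the conceptus increases it. The secreted LGALS15 protein is found in the uterine lumen and inside trophectoderm cells, and in culture it promotes their migration and adhesion. LGALS3 is the chimera type galectin, with an N-terminal repeat region that lets it form oligomers, and it is made by many epithelia and by macrophages.

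LGALS15 stood at 90.4, 97.5, 87.2 and 81.0 RPKM in conceptuses 1 to 4. The 4 values lay close together, with conceptus 2 the highest and conceptus 4 the lowest. Their mean was 89.0 ± 6.87 RPKM (SD, n = 4), rank 745 of 25197 features and rank 515 of the 15226 features with a symbol. Genes next to LGALS15 in mean level were MAP2K1, a kinase of the MAP kinase cascade, at 89.3 ± 16.6 RPKM, INPP5A at 89.1 ± 9.80, PARVB, an adaptor of focal adhesions, at 88.9 ± 19.3 and CTSB, a lysosomal protease, at 88.3 ± 18.4 RPKM.

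LGALS3 stood at 12.8, 2.78, 26.7 and 20.6 RPKM in the same conceptuses. Conceptus 2 was far below the other 3, and conceptus 3 was the highest. The mean was 15.7 ± 10.3 RPKM (SD, n = 4), rank 3416 of 25197 features and rank 2788 of those with a symbol. The nearest genes in mean level, CCDC6 at 15.7 ± 1.65, URI1 at 15.7 ± 3.78, SNTB1 at 15.7 ± 3.88 and RANBP2 at 15.7 ± 5.26 RPKM, each had a smaller SD than LGALS3.

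Within each conceptus LGALS15 exceeded LGALS3, and the sizes of that difference were far apart. The ratio of LGALS15 over LGALS3 was 7.08 in conceptus 1, 35.1 in conceptus 2, 3.27 in conceptus 3 and 3.94 in conceptus 4. On the log2(RPKM + 1) scale, LGALS3 over LGALS15 was −2.76 ± 1.37 (SD, n = 4). Conceptus 2 held the highest LGALS15 and the lowest LGALS3 value. Without conceptus 2 the mean log2 ratio was −2.11 ± 0.55. The lowest LGALS15 value, 81.0 RPKM, lay above the highest LGALS3 value, 26.7 RPKM, so the ranges of the 2 genes did not overlap.

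The spread of the pair differed as plainly as the level. The coefficient of variation (CV, the SD as a share of the mean) was 7.72% for LGALS15 and 65.8% for LGALS3. Features averaging 5 RPKM or more, 6374 in all, are called expressed from here on. Of the 6373 other expressed features, 391 had a lower CV than LGALS15 and 79 had a higher CV than LGALS3. The median CV of expressed features was 20.5%. Of 7 measured reference genes 5 averaged 1 RPKM or more, and their CVs were 5.48% for GAPDH, 9.0% for PGK1, 17.5% for TBP, 27.0% for SDHA and 36.7% for B2M. Against the 500 features nearest in mean, 38 had a lower CV than LGALS15 and 8 a higher CV than LGALS3.

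The highest conceptus was 1.20 times the lowest for LGALS15 and 9.60 times for LGALS3. A ratio of at most 1.3 was found in 17.9% of expressed features, and a ratio of at least 9 in 0.486%. Conceptus 2 carries much of the LGALS3 range. Without it the ratio was 2.09 and the CV 34.9%, which 87.2% of expressed features lay below. The ratio was 7.40 without conceptus 3 and 9.60 without conceptus 1 or 4. A ratio of at least 2 over all 4 conceptuses was found in 21.9% of expressed features.

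The evenness of LGALS15 depended on how libraries were scaled. With column sums made equal its CV was 13.2%, and with median-of-ratios scaling 12.1%, and 22.2% and 19.8% of expressed features then had a lower CV, against 6.14% as deposited. That share was 15.3% without conceptus 1 and 15.1% without conceptus 3. The factors of the latter scaling were between −0.08 and 0.11 on the log2 scale. LGALS15 was highest in conceptus 2 and lowest in conceptus 4 under each of the 3 scalings, while conceptuses 1 and 3 changed places. For LGALS3 the highest conceptus was 9.25 and 9.72 times the lowest under the same scalings, with the order of the 4 conceptuses kept.

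**Figure D1:**
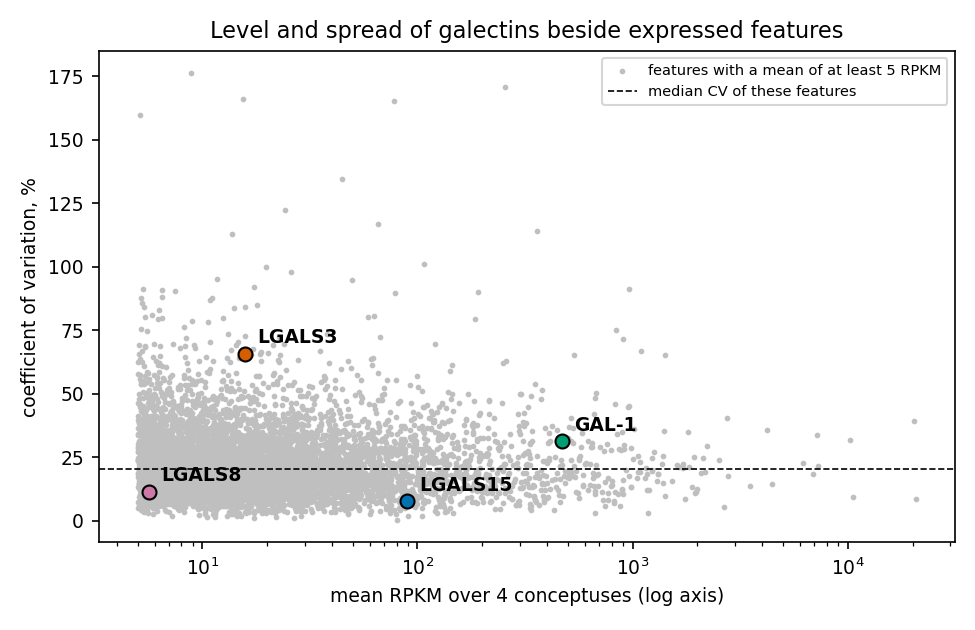
Coefficient of variation over 4 conceptuses (percent) against mean RPKM (log axis) for expressed features (mean of 5 RPKM or more), grey points, with 4 galectins in colour and the median CV as a dashed line. LGALS15 lies low in the cloud at 7.72% and LGALS3 near its upper edge at 65.8%, against a median of 20.5%.

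The table holds 9 galectin features, 7 by their LGALS symbol, 1 as GAL-1, a RefSeq synonym of LGALS1, and 1 described as galectin-14. Of the 9, 4 averaged 1 RPKM or more, or 44.4%, against 52.9% of all features with a symbol. In order of mean level these were GAL-1, LGALS15, LGALS3 and LGALS8, so the count includes the pair, which was chosen by level. GAL-1, the prototype galectin that acts as a homodimer, was at 586, 255, 490 and 540 RPKM in conceptuses 1 to 4. It exceeded LGALS15 in each conceptus, by 2.62 times in conceptus 2 and by 5.62 to 6.66 times in the others, and the ranges of GAL-1 and LGALS15 did not overlap.

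LGALS8, a tandem repeat galectin with 2 recognition domains, was at 5.72, 6.55, 5.05 and 5.31 RPKM. Its range overlapped that of LGALS3, which was above LGALS8 in conceptuses 1, 3 and 4 and below it in conceptus 2. LGALS3 and LGALS8 are thus not separated beyond their spread. LGALS15 exceeded LGALS8 by 14.9 to 17.3 times, a much narrower range than the ratio of LGALS15 over LGALS3.

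The other 5 galectin features were under 1 RPKM. LGALSL, a galectin-related gene, was at 0.18 to 0.49 RPKM, LGALS2 at 0 to 0.19 and LGALS4, known from gut epithelium, at 0 to 0.07 RPKM. The galectin-14 feature, in sheep a product of eosinophils, was at 0.23 RPKM in conceptus 1 and listed at 0 in the other 3. LGALS12, known from fat cells, was at 0.06 RPKM in conceptus 1 and listed at 0 in the other 3. These 5 lay too near 0 for their order to be read.

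**Figure D2:**
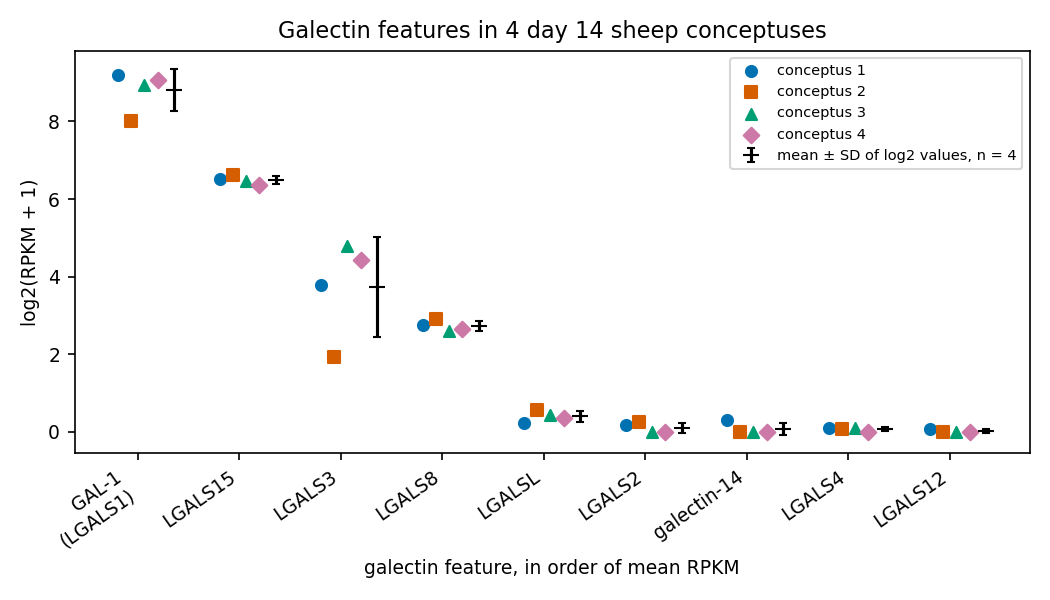
log2(RPKM + 1) of the 9 galectin features in conceptuses 1 to 4 (coloured symbols), with the mean and SD of the log2 values as black bars (n = 4). LGALS15 sits in a tight group between 81.0 and 97.5 RPKM, while LGALS3 spans 2.78 to 26.7 RPKM with conceptus 2 below LGALS8.

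Of the summed RPKM of the 9 galectin features, GAL-1 held 79.6 ± 6.39% (SD, n = 4), LGALS15 16.7 ± 6.85% and LGALS3 2.54 ± 1.58%. LGALS15 held 26.9% of the sum in conceptus 2 and 12.5 to 14.3% in the others. The sum itself was 363 RPKM in conceptus 2, against 609 to 695 RPKM elsewhere, and GAL-1 and LGALS3 were both lowest there. Of all expressed features 31.8% were lowest and 26.2% highest in conceptus 2. The other extremes of the pair, LGALS15 lowest in conceptus 4 and LGALS3 highest in conceptus 3, were shared by 20.3% and 14.4% of expressed features.

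LGALS15 is best known from the uterus, so genes of the endometrial epithelium were set beside it. Of 20 listed endometrial markers, 15 were measured. Of the 15 measured, 4 averaged 1 RPKM or more, or 26.7%, against 52.9% of all features with a symbol. SERPINA14, the uterine milk protein gene, was listed at 0 in conceptuses 1 and 4 and was at 0.11 and 0.04 RPKM in conceptuses 2 and 3. PGR, the progesterone receptor, was listed at 0 in all 4 libraries. STC1 was at most 0.20, OXTR, the oxytocin receptor, at most 0.08 and PIGR at most 0.07 RPKM. Other members were higher, with LTF, the lactoferrin gene, at up to 2.10 RPKM, FOXA2, a gland transcription factor, at up to 1.33, MSX1 at up to 0.99 and ESR1, the estrogen receptor, at up to 0.93 RPKM. Which of these markers the LGALS15-making epithelium itself expresses on day 14 was not examined. The part of maternal epithelial cells in the LGALS15 level was not tested.

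The summed level of the 15 endometrial markers was 108, 53.9, 52.1 and 100.2 RPKM in conceptuses 1 to 4. It was above LGALS15 in conceptuses 1 and 4 and below it in conceptuses 2 and 3. Most of it was PRSS8, a membrane protease of many epithelia, at 44.5 to 86.2 RPKM. Without PRSS8, left out after its values were seen, the sum was 22.1, 9.47, 5.70 and 16.3 RPKM. The highest sum was in conceptus 1 and the highest LGALS15 value in conceptus 2. The remaining part of the sum was mainly WNT7A, at 3.08 to 7.45 RPKM, HSD11B1, at 1.54 to 4.72, and GRP, at 0 to 5.78 RPKM. Of the 15 markers, FOXA2 is also in the extraembryonic endoderm list and 4 are in the list of uterine genes of early pregnancy. In such bulk samples more cells of a type and more RNA per cell cannot be told apart.

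Marker lists of other tissues were counted in the same way, which does not test the tissue label. All 15 measured trophectoderm markers averaged 1 RPKM or more, with TP-1, the interferon tau feature, the highest. Extraembryonic endoderm genes were above 1 RPKM in 9 of 15 cases, or 60.0%, and stroma genes in 4 of 11, or 36.4%. The share of all features with a symbol was 52.9%. The stroma list was led by TAGLN, an actin-binding protein of contractile cells, at 136 ± 46.6 RPKM, and its count was 2 without conceptus 3. The median of the list members' mean RPKM was 32.8 for trophectoderm, 1.33 for extraembryonic endoderm, 0.45 for endometrial epithelium, 0.48 for stroma and 0.04 for macrophages and leukocytes, against 1.43 for all features with a symbol.

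LGALS3 is also a product of macrophages. Of 20 measured macrophage and leukocyte genes, 2 averaged 1 RPKM or more, AIF1 and CD68. That is 10.0%, against 52.9% of all features with a symbol. PTPRC, the pan-leukocyte antigen CD45, was at most 0.04 RPKM, CSF1R, the macrophage growth factor receptor, and CD14 at most 0.05, CD163 at most 0.02 and ITGAM at most 0.02 RPKM. CD68, a lysosomal protein, was at 1.90, 1.83, 0.99 and 1.47 RPKM, lowest in conceptus 3 where LGALS3 was highest. AIF1 was at 10.1, 13.9, 22.5 and 17.1 RPKM. Like LGALS3 it was highest in conceptus 3 and next in conceptus 4, but AIF1 was lowest in conceptus 1, and its part in the LGALS3 pattern was not tested. Without AIF1, left out after its values were seen, the 19 other genes summed to between 1.76 and 3.76 RPKM.

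**Figure D3:**
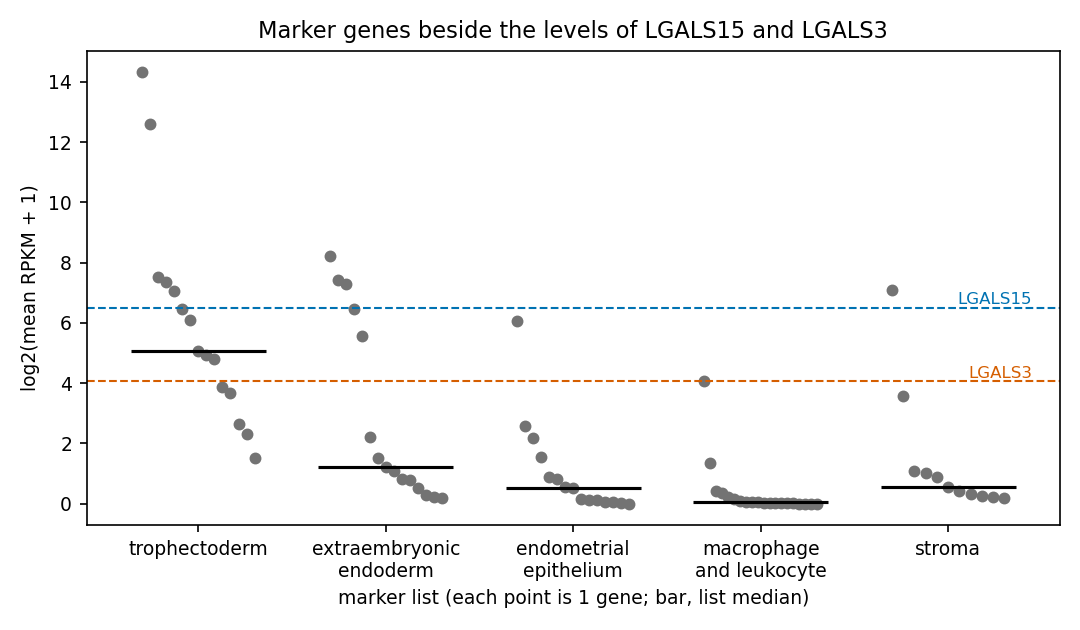
log2(mean RPKM + 1) of each measured gene of 5 marker lists (points) with the list median as a bar, and the levels of LGALS15 and LGALS3 as dashed lines. LGALS15 at 89.0 RPKM lies above every endometrial marker, of which PRSS8 is the highest, and LGALS3 at 15.7 RPKM lies above every macrophage or leukocyte gene except AIF1 at 15.9 RPKM.

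LGALS15 was then placed among genes described in the sheep uterus of early pregnancy, of which 21 were measured and 17 averaged 1 RPKM or more, or 81.0%, against 52.9% of all features with a symbol. LGALS15, itself among the 17 and chosen by its level, was the fourth by mean level. Above it were PTGS2, the inducible cyclooxygenase, at 1093 ± 731 RPKM, FXYD4, an ion transport regulator, at 214 ± 101.4, and SLC2A1, a glucose transporter, at 98.6 ± 26.8 RPKM. CTSB followed it. The CV of LGALS15, 7.72%, stands beside 15.8% for HIF1A, the hypoxia factor, which was named after its values were seen, 20.9% for CTSB, 27.1% for SLC2A1, 47.3% for FXYD4 and 66.9% for PTGS2.

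TP-1, for the protein that raises LGALS15 in endometrium, was at 14004, 13397, 29709 and 24277 RPKM in conceptuses 1 to 4. As deposited, TP-1 was thus lowest where LGALS15 was highest, and its highest conceptus was 2.22 times its lowest, against 1.20 times for LGALS15. LGALS3 then had the same order of the 4 conceptuses as TP-1, from conceptus 2 through 1 and 4 to 3. The TP-1 values of conceptuses 1 and 2 are close. With column sums made equal, or with median-of-ratios scaling, they change places and TP-1 is lowest in conceptus 1. LGALS3 kept its order under both. The deposited order of LGALS3 was found in 3.15% of expressed features, and that of LGALS15 in 5.40%. PTGS2, at 473, 507, 1968 and 1424 RPKM, shared with LGALS3 the highest and the next highest conceptus, but was lowest in conceptus 1.

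Features nearest to each galectin in profile were found by the distance over the 4 conceptuses between log2(RPKM + 1) values centred on the feature's mean, among the other 5363 expressed features that have a symbol. Nearest to LGALS3 was HAND1, a transcription factor of trophoblast and extraembryonic mesoderm, at 11.9, 2.04, 25.6 and 13.1 RPKM, a distance of 0.44. It was followed by CD97, an adhesion receptor, at 15.9, 7.27, 39.9 and 28.3 RPKM, at 0.63. B3GNT7, a glycosyltransferase that extends lactosamine chains, was at 26.8, 12.6, 55.5 and 53.1 RPKM, at 0.67. ANKRD39 at 0.73 and SCIN, an actin-severing protein, at 0.75 completed the 5. All 5, picked for closeness of profile, were lowest in conceptus 2, and ANKRD39 alone was highest in conceptus 4 and not 3.

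HAND1 and CD97 remained among the 5 nearest to LGALS3 under both alternative settings, and B3GNT7 under 1 of them. Nearest to LGALS15 were ANKRD17 at a distance of 0.01, DHX38, a splicing helicase, at 0.02, GSPT1, a translation release factor, at 0.04, DCAF13 at 0.04 and PDCL at 0.04. Each had a CV between 6.60% and 9.56% and the order of conceptuses of LGALS15. That likeness follows largely from their choice by closeness of profile.

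**Figure D4:**
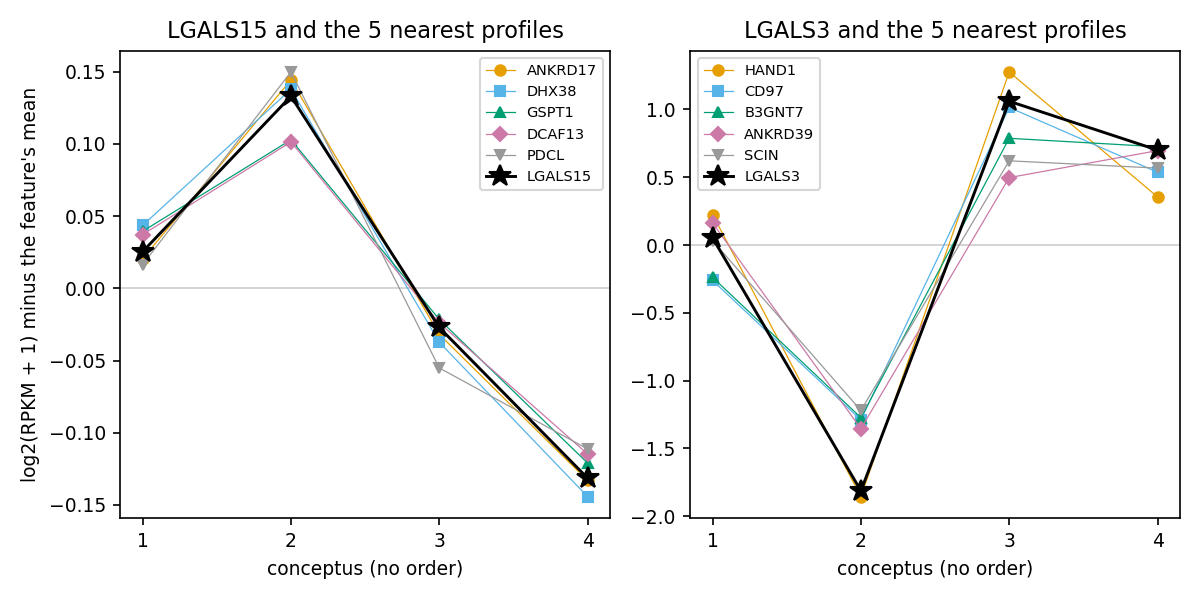
log2(RPKM + 1) minus the feature's own mean in each conceptus for LGALS15 (left) and LGALS3 (right, stars) and the 5 nearest features of each, where lines only join the points of 1 feature and the vertical scales differ. LGALS15 and its neighbours stay within about 0.15 of their means, while LGALS3 and its neighbours are lowest in conceptus 2, LGALS3 by 1.81 below its mean.

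The sugars that galectins bind are built by enzymes of N-glycan branching and lactosamine synthesis, and 22 of 32 such genes averaged 1 RPKM or more, or 68.8%, against 52.9% of all features with a symbol. The highest were B3GNT2, which extends lactosamine chains, at 97.3 ± 5.44 RPKM, B4GALT5 at 56.5 ± 7.77, MGAT2, a branching enzyme, at 43.2 ± 4.58, B4GALT3 at 37.9 ± 8.01 and B4GALT1 at 37.8 ± 11.8 RPKM. Of the 19 at 5 RPKM or more, B4GALT1 and MGAT5, or 10.5%, had the order of conceptuses of LGALS3, against 3.15% of all such features. The same count gave 2 of 13 trophectoderm markers, or 15.4%, and 1 of 5 reference genes, or 20%. No gene of the other lists had that order, among them 14 galectin-binding partners and 12 uterine genes. B4GALT1 was at 39.8, 20.7, 46.0 and 44.9 RPKM. MGAT5, which makes the branch that LGALS3 binds well and which was named after its values were seen, was at 4.52, 2.67, 9.57 and 5.81 RPKM. The highest conceptus was 2.22 times the lowest for B4GALT1, a smaller fold than the 9.60 of LGALS3.

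Of 23 measured glycoproteins and other partners known to bind galectins, 18 averaged 1 RPKM or more, or 78.3%, against 52.9% of all features with a symbol. CD9, a tetraspanin, was highest at 1168 ± 141 RPKM, then BSG, a membrane glycoprotein, at 409 ± 98.4, LAMP1, a lysosomal glycoprotein, at 193 ± 48.3, FN1, fibronectin, at 167 ± 35.1 and SLC3A2 at 49.6 ± 9.26 RPKM. LGALS3BP, the secreted glycoprotein named for binding LGALS3 and singled out after its values were seen, was at 1.92, 1.69, 0.11 and 0.75 RPKM. It was lowest in conceptus 3, where LGALS3 was highest, and did not follow LGALS3 in conceptus 2.

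The sheep LGALS15 protein carries predicted integrin recognition motifs, so integrin subunits were listed too, and 6 of 16 averaged 1 RPKM or more, or 37.5%, against 52.9% of all features with a symbol. ITGB1, the beta subunit shared by many integrins, was at 70.5, 76.6, 74.5 and 77.2 RPKM, below LGALS15 in each conceptus. With a CV of 4.04% ITGB1 was also even as deposited, and its CV under other scalings was not computed. ITGA6 at 36.2 ± 7.89, ITGA5, of the fibronectin receptor, at 27.8 ± 5.67, ITGB5 at 6.04 ± 2.95 and ITGA3 at 4.47 ± 1.65 RPKM followed.

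Neighbouring genes bear on how firmly the values can be assigned. In the RefSeq annotation of the newer assembly ARS-UI_Ramb_v3.0, used for names and neighbours only, the span of WDHD1, a replication gene, overlaps LGALS3. Their strands were not compared. WDHD1 was at 9.80, 9.71, 7.62 and 7.88 RPKM, so in conceptus 2, where LGALS3 was lowest, it was close to its highest value. Before LGALS15 lie 3 protein-coding genes without a name, and whether they resemble LGALS15 closely enough to share its reads was not analysed here. The values of both genes are uncertain to that extent.

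The libraries were alike in column sums and in correlation, while their estimated depths differed. Column sums ranged from 454387 to 522308 RPKM, and Pearson correlations across features on the log2(RPKM + 1) scale from 0.982 to 0.990, where features are not independent replicates. The files give neither counts nor gene lengths, which leaves the absolute depth unknown and the values without counting intervals. Relative depth was read from features above 0 in just 2 libraries, by the most frequent ratio of their values. Taking conceptus 1 as the unit, it came to about 0.742 in conceptus 2, 1.04 in conceptus 3 and 0.655 in conceptus 4. These depths are rough, since they rest on 159 to 193 features, of which 30.1% to 37.1% lay near the ratio. Conceptus 2, lowest for LGALS3, also had the fewest features above 0, 14754 against 14903 to 15791 in the others, and the part of depth in its LGALS3 value was not tested.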

How the data were processed

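Ribosome-depleted total RNA of 4 conceptuses of pregnancy day 14 was read on an Ion Proton with Torrent Suite 4.0.2, from strand-specific libraries, per the labels' protocols. The deposited values are RPKM made by the authors. The unit is named only for a second deposited table, whose 5527 features, at 5 RPKM or more in each library, are identical in the full table of 25197 features. The submitters' processing notes name build Oar_v3.1. Aligner, counter, annotation release and use of strand were not given in the sources used here.

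LGALS15 and LGALS3 were taken by name. Errors are SDs over the 4 conceptuses, CV is SD over mean, and log2 values use a pseudocount of 1. Gene lists were written by hand. The members and lists were chosen with earlier results of these data known. Genes named are the members, all galectin features, the endometrial and leukocyte markers, the 5 highest of each other list, the 2 features above and below each member in mean level, and the 5 nearest in centred log2 profile. WDHD1 was named because it overlaps LGALS3, and the others are said to have been named after their values were seen. Of the 9 galectin features, 8 matched RefSeq by symbol or synonym. On simulated data for 5364 features the nearest-profile step recovered 5 of 5 planted profiles. The planted profiles were strong and nearly identical, and no even profile like that of LGALS15 was planted. The result shows only that the step runs as built. The labels give 1 ewe per conceptus, so spread includes animal and technical differences. Python 3.11.15, numpy 2.4.6, pandas 2.3.3 and matplotlib 3.10.9 were used.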

Additional observations from a re-analysis of the deposited data

Results flagged for a closer look

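Sets of 4 values were examined for a single conceptus far from the other 3. They were those of the named genes averaging 1 RPKM or more and the ratio of LGALS3 over LGALS15, 66 sets in all. With independent sets about 1 in 20, here 3.3, would stand out by chance. These sets are not independent and many were chosen by their values, so that number is no yardstick for them. In the event 1 set stood out. COL3A1, a fibrillar collagen of the stroma list, reached 2.81 RPKM in conceptus 3, while the other 3 lay between 0.44 and 0.60 RPKM. Neither LGALS15 nor LGALS3 stood out by this measure, which for the pair is a description only, since both were chosen by these values.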

How the results depend on the processing

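The mean levels of LGALS15 and LGALS3 and their log2 ratio moved by less than 1 SD under each alternative tried. For leaving out 1 conceptus this is no check, since a mean of 4 values cannot then move by as much as 1 SD. The rescalings adjusted the libraries about a common level, so they could hardly move a mean level either. No stability of the mean levels is read from these shifts. The CV of LGALS15 was 13.2% with column sums made equal, 12.1% with median-of-ratios scaling, and 5.55% to 9.41% without 1 conceptus; the CV of LGALS3 was 34.9% to 85.3% without 1 conceptus, the lowest without conceptus 2. The cause was not tested. Of the galectin features, 9 were above 0 in at least 1 library, against 4 at a mean of at least 1 RPKM. With a floor of 5 RPKM, fewer genes counted by construction: 2 endometrial, 1 macrophage or leukocyte, 2 stroma and 5 extraembryonic endoderm genes. The stroma count was 2 to 4 without 1 conceptus. Among the 5 features nearest to LGALS3, 2 were shared under median-of-ratios scaling and 3 with candidates at a mean of at least 1 RPKM. No paired analysis was possible because the 4 conceptuses form 1 group. Depth is unknown, so values near 0 carry no counting interval.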
